A study of Mus musculus with 4 samples.

Results

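The genes Kcna1, Kcna2, Kcna4, Kcna6, Kcnb2, Kcnc1, Kcnc2 and Kcnc4 encode pore-forming subunits of voltage-gated potassium channels of the Kv1, Kv2 and Kv3 families. They were taken by symbol from the gene list of the deposited count matrices, which held all 8 members among 32285 genes. The data were UMI counts (unique molecular identifiers, each standing for 1 captured RNA molecule) from nuclei of adult mouse cortex. C57BL/6J wild-type mice of both sexes received risperidone, an antipsychotic that blocks dopamine and serotonin receptors, at 4 mg/kg by daily intraperitoneal injection from postnatal day 22 for 21 days, or saline on the same schedule. After a washout that the labels give as 43 days, at postnatal day 90 (these label values do not add up exactly), right hemicortices from 5 males and 5 females of each condition went into 1 pool, and each pool was loaded on 2 lanes of a droplet device. The comparison asked how adolescent risperidone had left cortical expression in the adult. With 1 pool per condition there was no replicate of a condition, the 2 lanes of a pool were technical repeats, and no test between the pools was possible. Every interval given here is exact, at the 95% level, and covers counting error only, not the variation between mice.

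Kv channels open on depolarization and repolarize the membrane. Kv1 subunits sit along axons, at juxtaparanodes and terminals, where they open near threshold and limit firing. Kv2 subunits form clusters on somata and proximal dendrites and carry much of the slow delayed rectifier current. Kv3 subunits open only at positive potentials and close fast, which lets parvalbumin basket cells fire at high rates. Kcna4 and Kcnc4 belong to these families by sequence, although channels made of either alone inactivate quickly. The counts hold no measurement of current, so the name delayed rectifier was not examined here.

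In the GENCODE vM21 annotation of GRCm38, the Kcna genes each had 1 coding exon in every coding transcript. Kcna1 (ENSMUSG00000047976) was at chr6:126640397-126646384 and its neighbour Kcna6 (ENSMUSG00000038077) at chr6:126708329-126740674, both on the minus strand. Kcna2 (ENSMUSG00000040724) was at chr3:107101146-107115005 on the plus strand and Kcnc4 (ENSMUSG00000027895) close by at chr3:107438303-107459552 on the minus strand. Kcna4 (ENSMUSG00000042604) was at chr2:107290639-107298502 on the plus strand. Also on plus strands were Kcnc1 (ENSMUSG00000058975) at chr7:46396497-46438704, Kcnc2 (ENSMUSG00000035681) at chr10:112271121-112467024 and Kcnb2 (ENSMUSG00000092083) at chr1:15287254-15723750. Spans ran from 5.99 kb for Kcna1 to 436 kb for Kcnb2. Nuclear RNA holds introns, so levels of different genes are set side by side below only per kb of span or of exon. Neither division makes UMIs of different genes fully comparable, so the order of the genes is a description.

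RefSeq promoters were at hand for 6 of the 8 members, with none used for Kcna1 and Kcnb2. The 250 bases before the start are shown for Kcnc1 and Kcnc2, the Kv3 pair that shared a class pattern but differed between the pools, as described below. Capitals mark the GC box GGGCGG on either strand, a motif found in 32.7% of all 32851 promoter windows of that length. The Kcnc1 window was chr7:46396218-46396467 (GRCm38.p6, plus strand) and ended 29 bases before the annotated gene. The Kcnc2 window was chr10:112270871-112271120 (same build and strand) and ended directly before the gene's first base.
Kcnc1: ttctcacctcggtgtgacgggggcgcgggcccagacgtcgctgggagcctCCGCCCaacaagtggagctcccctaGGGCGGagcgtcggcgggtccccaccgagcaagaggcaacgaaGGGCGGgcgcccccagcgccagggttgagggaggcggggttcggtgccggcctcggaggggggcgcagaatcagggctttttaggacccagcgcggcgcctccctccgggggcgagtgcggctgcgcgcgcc
Kcnc2: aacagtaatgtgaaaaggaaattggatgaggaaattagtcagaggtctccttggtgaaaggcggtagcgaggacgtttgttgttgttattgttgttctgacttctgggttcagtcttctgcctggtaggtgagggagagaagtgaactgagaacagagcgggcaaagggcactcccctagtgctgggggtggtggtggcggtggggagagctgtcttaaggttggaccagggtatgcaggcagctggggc
The Kcnc1 window held 3 GC boxes and was 74.4% G and C, against a median of 52.4% over all windows. The Kcnc2 window held 0 GC boxes, was 52.8% G and C, and held 1 copy of CCAAT, counted on both strands, a motif present in 33.8% of windows. RefSeq gave 4 windows for Kcnc2. The one at chr10:112270873-112271122 had the same motif counts as the window shown, the one at chr10:112269767-112270016 held 1 GC box, and the one at chr10:112271023-112271272 held 0 copies of CCAAT. The window shown is the one that ends at the annotated start. None of these windows held TATAAA on either strand, which 12.4% of windows did. These letters describe the windows and were not tested against expression.

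The lanes listed 23450 to 29986 nuclei and 119736937 to 203675013 UMIs, with the saline lanes the shallower. The median nucleus held 3297 and 4049 UMIs in saline and 5648 and 7766 UMIs in risperidone. The smallest nucleus listed held 1364 and 1630 UMIs in saline but 500 in both risperidone lanes. Mitochondrial RNA was 0.0408% and 0.0395% of UMIs in saline and 0.0185% and 0.0163% in risperidone, and Malat1, a nuclear RNA, was 2.11% and 2.12% against 3.41% and 3.26%. Any pair of lanes shared between 160 and 221 cell barcodes. Nuclei were sorted by marker genes, and each class name below stands for nuclei with that marker profile. All markers of each named class were raised in it by a set ratio over the median of the other classes, except for 1 of 4 in the layer 6 corticothalamic (CT) nuclei. In layer 5 extratelencephalic nuclei all 6 were raised, but 0 were among the genes that led the class by this ratio. The classes were set from these same markers, so this is no separate check of the names. Between 14.4% and 17.7% of nuclei per lane matched a mix of 2 classes better and were left out as doublet-like. There remained 69169 glutamatergic nuclei, 2493 parvalbumin interneurons (PV-INs), 2178 somatostatin interneurons (Sst-INs) and 1418 oligodendrocytes, among others. A group of 8126 glutamatergic nuclei with Il1rapl2 and Deptor rested on 2 markers and was left without a type name. The summed level of a gene in a class cannot tell fewer expressing nuclei from less RNA per nucleus.

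The members were spread over very different levels. Per kb of exon, the glutamatergic level in UMIs per 1000000 UMIs of the class (CPM) was 85.0 for Kcnb2 and 55.6 for Kcnc2, and the other members lay between 2.55 for Kcna2 and 8.35 for Kcnc1. Per kb of span the order was different, with Kcna1 first at 5.58 CPM, Kcnb2 next at 2.95 and Kcnc4 last at 0.647. As a measure of counting precision and not of level, the lanes gave 138463 to 235301 UMIs of Kcnb2 but only 1673 to 2351 of Kcnc4. The plot of levels by class shows unlike patterns over the 17 classes with enough UMIs.

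**Figure D1:**
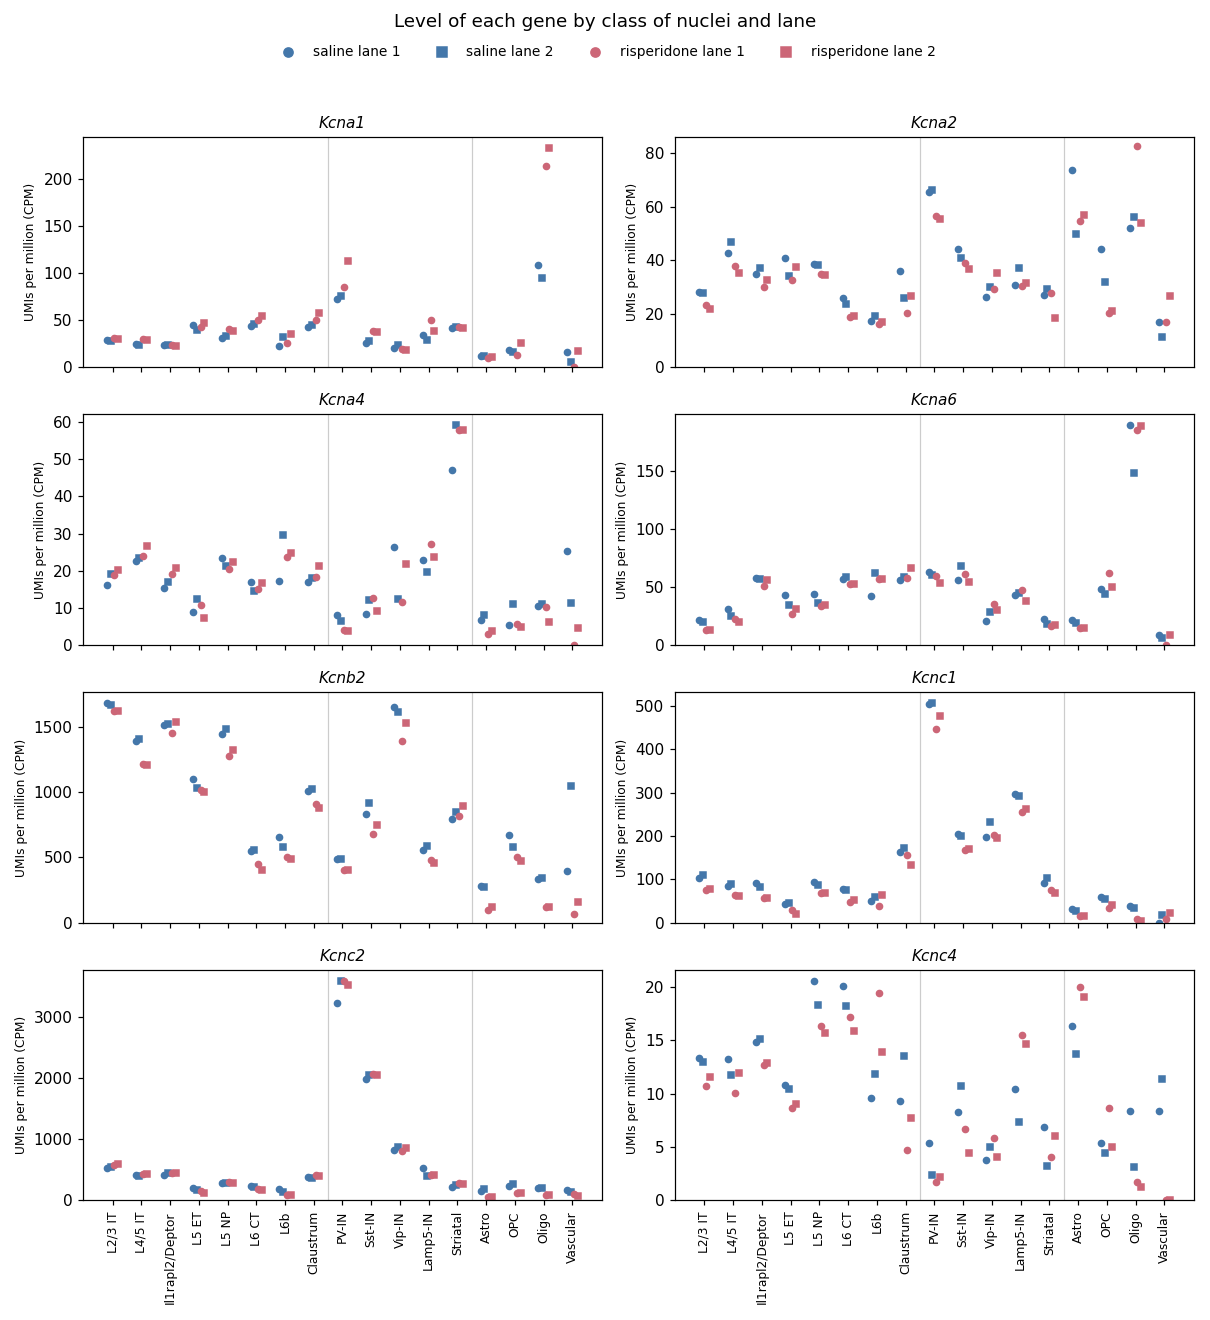
Level of each gene in CPM (linear axes from 0) in 17 classes of nuclei, with 1 point per lane (blue saline, red risperidone, circles lane 1, squares lane 2). Kcnc1 and Kcnc2 peak in PV-INs, Kcna1 and Kcna6 in oligodendrocytes, Kcna4 in striatal-type nuclei, and Kcnb2 in layer 2/3 and Vip nuclei.

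Among the Kv1 genes, Kcna1, the subunit mutated in episodic ataxia, was highest in oligodendrocytes. Its level there was 108 and 95.4 CPM in saline and 214 and 233 CPM in risperidone. PV-INs came next with 72.9, 76.1, 85.4 and 113 CPM, and their lanes overlapped those of oligodendrocytes. Among nuclei of at least 2000 UMIs, saline oligodendrocytes held 45.6 and 94.7 CPM, against 71.7 and 77.0 CPM in saline PV-INs. In risperidone these levels were 143 and 145 CPM against 85.4 and 112 CPM, so the order held there but not in both saline lanes. All PV-IN lanes were above every lane of the next class, claustrum-like nuclei, whose mean was 48.8 CPM. From there down to oligodendrocyte precursor cells (OPCs), at 18.6 CPM, each class overlapped its neighbour. Astrocytes, at 11.1 CPM, lay below all lanes of OPCs.

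Kcna6, another axonal Kv1 subunit, was also highest in oligodendrocytes, with 190, 149, 186 and 189 CPM over the 4 lanes. All of these were above every lane of the other classes. Sst-INs, claustrum-like nuclei and PV-INs followed at 60.0, 60.0 and 59.2 CPM and overlapped. Among the glutamatergic types Kcna6 ran from 17.0 CPM in layer 2/3 intratelencephalic (IT) nuclei to 60.0 CPM in claustrum-like nuclei, with layer 6 CT nuclei at 55.2 CPM and the Il1rapl2/Deptor nuclei at 55.5 CPM. Across the 17 classes the levels of Kcna1 and Kcna6 (log2 of CPM plus 1) had a Pearson r of 0.78, the second highest of the pairs of members. The classes share lanes and depth, so this r is a description.

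A long noncoding gene, Gm26673, lies on the opposite strand across part of Kcna6, and reads of such a pair can be confused where strand is lost. Gm26673 was at 18.1, 17.4, 18.1 and 17.3 CPM in the lanes as a whole. In oligodendrocytes, where Kcna6 peaked, it was at 4.17 and 10.9 CPM in saline and 24.1 and 16.3 CPM in risperidone, from 2, 7, 14 and 13 UMIs. In PV-INs it was at 54.1 to 69.6 CPM. The 2 genes were thus not at their highest in the same class.

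Kcna2, the usual axonal partner of the Kcna1 subunit, varied least between classes, by 3.51 times from layer 6b (17.4 CPM) to oligodendrocytes (61.3 CPM). PV-INs at 61.0 CPM and astrocytes at 58.8 CPM overlapped oligodendrocytes, and these classes stood above all others lane by lane. Kcna4, which forms fast inactivating channels, was highest in striatal-type nuclei, with 47.0, 59.1, 57.8 and 57.8 CPM, apart from all other classes. It was 5.60 CPM in PV-INs and 9.87 CPM in layer 5 extratelencephalic (ET) nuclei, and 24.2 CPM in layer 4/5 IT nuclei.

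Kcnb2, the Kv2 member, was highest in layer 2/3 IT nuclei. Layer 2/3 IT nuclei held 1683, 1664, 1618 and 1619 CPM, and Vip interneurons, at 1545 CPM, overlapped them. The Il1rapl2/Deptor nuclei at 1503 CPM, layer 5 NP at 1380 CPM and layer 4/5 IT at 1304 CPM came next, each overlapping its neighbour. Layer 6 CT nuclei held 489 CPM and PV-INs 445 CPM. Astrocytes and oligodendrocytes showed 192 and 230 CPM. There the estimate of RNA of other cells reached its cap of 100% of the counts in both pools. At the cap the estimate is as large as the counts or larger, so it cannot tell how much Kcnb2 RNA came from these classes.

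In the Kv3 family the interneurons led. Kcnc2 was at 3223, 3588, 3591 and 3521 CPM in PV-INs (saline lanes first), at 2037 CPM in Sst-INs and at 840 CPM in Vip interneurons, each class apart from the next. Kcnc1 was at 506, 507, 446 and 478 CPM in PV-INs, followed by Lamp5 interneurons at 277 CPM, Vip interneurons at 207 CPM and Sst-INs at 186 CPM. Kcnc1 and Kcnc2 had the highest r of all pairs of members, 0.85. They were not alike everywhere: the lanes of Lamp5 interneurons stood above all lanes of Sst-INs for Kcnc1 and below them for Kcnc2. Kcnc4, the fast inactivating Kv3 subunit, ran from 2.92 CPM in PV-INs to 17.8 CPM in layer 6 CT nuclei, with 17.3 CPM in astrocytes. Its r was 0.07 to Kcnc1 and -0.21 to Kcnc2.

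Shares of nuclei with at least 1 UMI were taken after each nucleus was thinned to 2000 UMIs. Kcnc2 was seen in 95.1% of saline PV-INs (93.7 to 96.3%, n = 1205) and 95.6% of risperidone PV-INs (94.3 to 96.7%, n = 1167). Without thinning the values were 96.9% and 97.2%, at medians of 4126 and 6243 UMIs per nucleus. The background was set by glia: Kcnc2 was seen in 23.5% of saline and 8.93% of risperidone astrocytes after thinning, at medians of 2104 and 1841 UMIs. Kcnc1 was seen in 61.1% and 57.5% of PV-INs, against 4.85% and 2.30% of astrocytes.

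Risperidone and saline pools were then compared within glutamatergic nuclei, PV-INs and Sst-INs, the classes the study contrasted. Folds are log2 ratios of the risperidone to the saline pool after TMM scaling, which sets the typical gene to no change. A gene was counted as past the size rule when its log2 fold was at least 0.5 in size, its mean was at least 10 CPM, and its risperidone lanes did not overlap its saline lanes. In glutamatergic nuclei 1 of the 8 members, Kcnc1, was lower by that rule, where 5.87% of 7280 genes were, and 0 of 8 were higher, where 4.75% were. Among PV-INs 6 members reached 10 CPM and 0 were lower or higher, where 7.41% of 7462 genes were lower and 7.93% higher. Sst-INs had 7 members at that level and again 0 past the rule, where 6.79% of 7366 genes were lower and 7.20% higher. A count of 1 or 0 among so few genes is no result about the members as a group.

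More of the measured members had folds below 0 than above 0, although some of these folds lay near 0. The median log2 fold of the members was -0.21 in glutamatergic nuclei with 5 of 8 below 0, -0.20 in PV-INs with 5 of 6, and -0.19 in Sst-INs with 6 of 7. The counts include Kcnc2, at -0.02 in PV-INs and -0.04 in Sst-INs, for which no direction is read below. They also include Kcna4 in Sst-INs, at -0.03 with overlapping lanes, which kept its direction in 7 of 13 alternatives. Without saline lane 2 the Sst-IN median was -0.037. Over all genes the medians were 0.01 in each of these classes, with 49.0%, 48.8% and 49.0% of genes below 0. The members were chosen with earlier results of these data known, so this contrast is a description and no evidence of a shift of the group. Under plain CPM without scaling, the split of genes past the rule moved from 427 lower and 346 higher to 288 and 496 in glutamatergic nuclei, from 553 and 592 to 391 and 816 in PV-INs, and from 500 and 530 to 355 and 709 in Sst-INs. The plot of folds sets the members side by side.

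**Figure D2:**
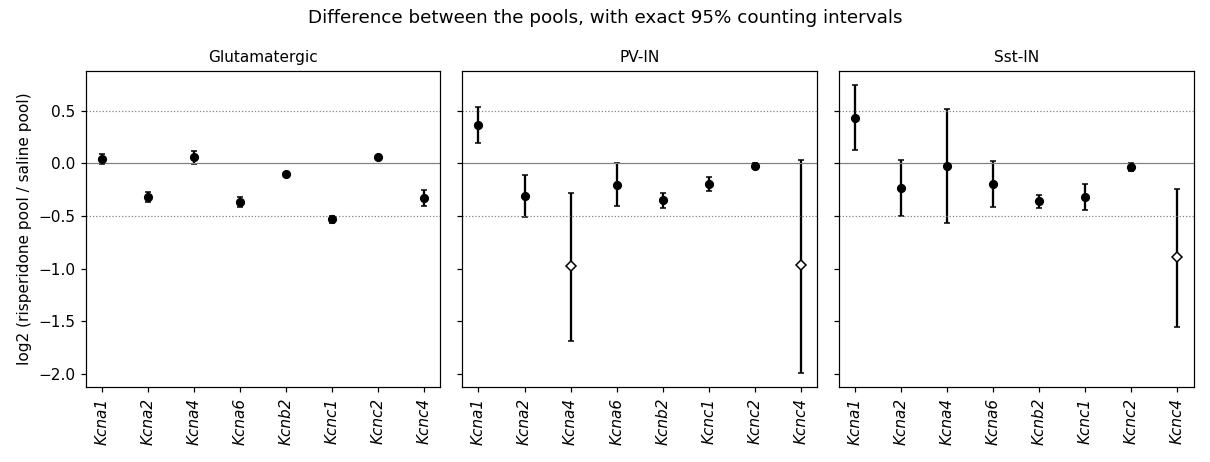
Log2 ratio of the risperidone to the saline pool for each gene in 3 classes, with exact 95% counting intervals (open diamonds are genes below 10 CPM, dotted lines mark 0.5). Kcnc1 in glutamatergic nuclei, at -0.53, is the point beyond the line with enough counts, and Kcna1 is above 0 in both interneuron classes.

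Kcnc1 in glutamatergic nuclei was at 92.5 and 90.9 CPM in saline and 66.6 and 65.8 CPM in risperidone. The lanes of each pool lay close together and the pools did not overlap, as was so for 91.2% of all genes of this class, since lanes repeat the same nuclei suspension. The log2 fold was -0.53 (-0.56 to -0.50) from 16174 and 17140 UMIs. Under plain CPM it was -0.47, which is short of the rule. Estimated RNA of other cells made up 47.8% of the saline and 54.4% of the risperidone counts, and without it the fold was -0.68. This estimate takes the profile of the whole lane, so it includes RNA of other glutamatergic nuclei and is not the share from other classes. After thinning, Kcnc1 was seen in 16.6% of 33179 saline nuclei (16.2 to 17.0%) and 12.2% of 31328 risperidone nuclei (11.9 to 12.6%), while the unthinned shares, 31.6% and 37.3%, ran the other way at medians of 3978 and 7234 UMIs.

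Kcnc1 was below 0 in all 8 glutamatergic types and past the rule in 5 of them. The types come from the same pools and lanes, so they do not repeat the comparison. The share of all genes past the rule was not counted within the types, here or for the members below. Layer 5 ET nuclei had the lowest Kcnc1 fold, -0.88, with 42.6 and 44.7 CPM in saline and 29.5 and 20.7 CPM in risperidone. The Il1rapl2/Deptor nuclei followed at -0.67, layer 6 CT at -0.64, layer 2/3 IT at -0.54 and layer 4/5 IT at -0.50. Layer 5 near-projecting (NP) nuclei, at -0.48, and claustrum-like nuclei, at -0.29, had lanes apart but folds under 0.5. In layer 6b, with 524 nuclei, the fold was -0.10 and the lanes overlapped. With other cells' RNA subtracted, the 5 types past the rule stayed below 0, from -1.45 to -0.50, and layer 6b turned to 0.25. In layer 5 NP nuclei the estimate reached 97.5% of UMIs in 1 risperidone lane, so no subtracted value is given for that type.

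**Figure D3:**
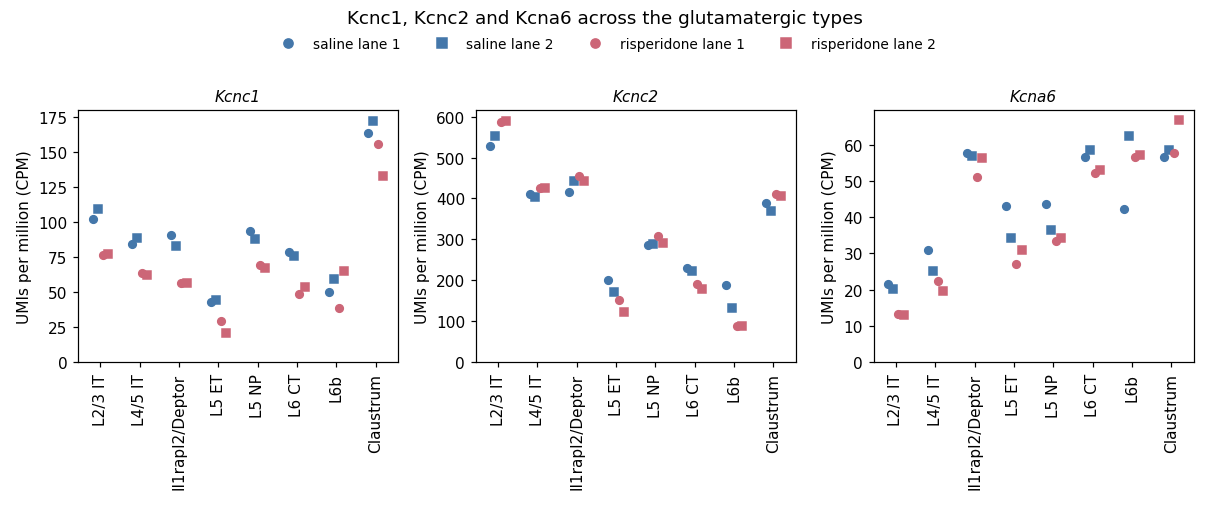
Level of Kcnc1, Kcnc2 and Kcna6 in CPM (axes from 0) in the glutamatergic types, with 1 point per lane (blue saline, red risperidone, circles lane 1, squares lane 2). The risperidone points of Kcnc1 are below the saline points in every type but layer 6b, those of Kcnc2 only in layer 5 ET, layer 6 CT and layer 6b, and the lowest fold of Kcna6, -0.74, is in layer 2/3.

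The other Kv3 genes did not share one direction. Kcnc2 in glutamatergic nuclei was at 376 and 383 CPM in saline and 415 and 414 CPM in risperidone, a log2 fold of 0.06 (0.05 to 0.07), which was -0.066 in female and 0.29 in male nuclei alone. Its fold differed by type: layer 2/3 IT was at 0.05 and layer 4/5 IT at 0.02, but layer 5 ET at -0.49, layer 6 CT at -0.35 and layer 6b at -0.85, the last from 189, 132, 87.9 and 89.1 CPM. With the types weighted equally the fold was -0.20. These 3 types were the lowest of the glutamatergic types in Kcnc2, and estimated RNA of other cells made up 67.0% to 100% of their Kcnc2 counts. Without it the layer 6 CT fold turned to 0.99, layer 5 ET was at -1.49, and nothing was left in risperidone layer 6b, so no direction is read for Kcnc2 in layer 6. Kcnc4 was at 15.3, 14.8, 12.3 and 12.6 CPM, a fold of -0.33 (-0.41 to -0.26), with lanes apart. It was below 0 in 7 of the 8 types, but in layer 6b it was higher by the rule, at 0.58 (-0.35 to 1.61) from 13 and 41 UMIs.

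Among the interneurons, Kcnc1 had a log2 fold of -0.20 (-0.27 to -0.13) in PV-INs, -0.32 (-0.45 to -0.20) in Sst-INs and -0.24 (-0.36 to -0.12) in Lamp5 interneurons, each with lanes apart. Lanes were apart for 68.0% of all genes in PV-INs and 63.6% in Sst-INs, and no such share was taken for Lamp5 interneurons. In male PV-IN nuclei alone the Kcnc1 fold was 0.0067 with overlapping lanes, so its direction was lost there. Kcnc2 had a fold of -0.02 (-0.05 to 0.0045) in PV-INs, where the lanes overlapped, and -0.04 (-0.07 to -0.00074) in Sst-INs. Both changed sign under plain CPM, to 0.05 and 0.026, and other alternatives also turned them, so no direction is read for Kcnc2 in these classes. Kcnc4 was higher by the size rule in Lamp5 interneurons, at 0.73 (0.09 to 1.41) from 28 and 79 UMIs. The share of all genes past the rule was not counted in Lamp5 interneurons. Kcnc4 was under 10 CPM in PV-INs, with 22 and 16 UMIs, and in Sst-INs, with 48 and 37 UMIs, and no direction is read there.

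None of the Kv1 genes passed the size rule in glutamatergic nuclei as a whole. Kcna2 was at 33.1 and 33.1 CPM in saline and 27.7 and 27.7 CPM in risperidone, a log2 fold of -0.32 (-0.37 to -0.27), and all 8 types were below 0, although without other cells' RNA layer 6b was at 0.04. Its folds were -0.31 (-0.51 to -0.11) in PV-INs and -0.23 (-0.50 to 0.03) in Sst-INs, and in Vip interneurons it was at 0.17 with overlapping lanes. In male PV-IN nuclei alone Kcna2 was at -0.18 with overlapping lanes, and in female PV-IN nuclei at -0.36. Kcna6 had a glutamatergic fold of -0.37 (-0.42 to -0.32), from 40.6, 38.3, 31.2 and 32.3 CPM. In layer 2/3 IT, the glutamatergic type where it was lowest, it was at 21.5 and 20.3 CPM against 13.1 and 12.9 CPM, a fold of -0.74 that passed the rule. Estimated RNA of other cells made up 70.3% and 72.8% of those counts, and without it the fold was -1.02. In layer 6b and claustrum-like nuclei its fold was 0.06, with overlapping lanes. Kcna6 was at -0.20 (-0.40 to 0.00029) in PV-INs and at -0.19 (-0.41 to 0.02) in Sst-INs, where the lanes overlapped. In male PV-IN nuclei alone Kcna6 was at -0.13 with overlapping lanes, and in female PV-IN nuclei at -0.36. Without risperidone lane 2 the PV-IN fold was -0.12 and the Sst-IN fold -0.098, and without saline lane 2 the Sst-IN fold was -0.037, or -0.31 without saline lane 1. Kcna6 was above 0 in Vip interneurons, at 0.31 (-0.28 to 0.94), and in OPCs, at 0.22 (-0.25 to 0.69). Kcna4 had a fold of 0.06 (-0.01 to 0.12) in glutamatergic nuclei, with overlapping lanes, and was under 10 CPM in PV-INs, with 43 and 31 UMIs, where no direction is read.

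Kcna1 stood at 31.7, 32.5, 34.7 and 34.6 CPM in glutamatergic nuclei, a fold of 0.04 (-0.005 to 0.09) that became -0.01 without other cells' RNA. Of the 8 types 1 was below 0, the Il1rapl2/Deptor nuclei at -0.11, and 4 had risperidone lanes above saline lanes. The highest was 0.25 in claustrum-like nuclei, and with the types weighted equally the fold was 0.11. PV-INs had a fold of 0.37 (0.20 to 0.54), Sst-INs of 0.43 (0.13 to 0.74) and Lamp5 interneurons of 0.43 (0.08 to 0.78), each with lanes apart. Vip interneurons went the other way, at -0.29 (-0.98 to 0.42) from 30 and 47 UMIs. In male nuclei alone the lanes overlapped in both PV-INs, at 0.24, and Sst-INs, at 0.37. The PV-IN value rested on risperidone lane 2, at 113 CPM. Without that lane the fold was 0.12, and without risperidone lane 1 it was 0.53 and passed the rule. In Sst-INs the levels were 26.1 and 27.6 CPM in saline and 38.6 and 37.4 CPM in risperidone, from 134 and 259 UMIs, and the fold stayed between 0.33 and 0.62 over the alternatives. Thinned to 2000 UMIs, 12.4% of saline PV-INs (10.6 to 14.4%) and 17.0% of risperidone PV-INs (14.9 to 19.2%) held a Kcna1 UMI. In Sst-INs the thinned shares were 5.68% (4.33 to 7.29%) and 6.04% (4.69 to 7.63%), which overlap.

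Kcnb2 did not pass the rule in glutamatergic nuclei, with 1299, 1308, 1264 and 1282 CPM and a log2 fold of -0.10 (-0.11 to -0.09). The fold was -0.033 under plain CPM and -0.23 with the types weighted equally. Its folds were -0.35 (-0.42 to -0.28) in PV-INs and -0.36 (-0.42 to -0.30) in Sst-INs, with lanes apart in each class. In PV-INs it was -0.60 in female nuclei alone, and -0.22 with overlapping lanes in male nuclei alone. Layer 6 CT nuclei were at -0.44 and all 8 types were below 0, but without other cells' RNA layer 6 CT was at 0.01. In PV-INs, estimated RNA of other cells made up 70.4% of the saline and 78.2% of the risperidone Kcnb2 counts, and the fold without it was -0.84. The 14 markers of astrocytes and oligodendrocytes moved with these differences. Their summed level in PV-INs was 712 to 743 CPM in saline and 635 to 651 CPM in risperidone, with 12 of 14 lower. In Sst-INs it was 535 to 551 CPM against 335 to 349 CPM, and in glutamatergic nuclei 701 to 722 CPM against 590 to 657 CPM, and 0 of the 14 were absent. The part of such RNA in the members' folds was not tested beyond the subtraction.

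Kcna1 was also compared in oligodendrocytes, the class where its mean level was highest. It rested on 52 and 61 UMIs in saline and 124 and 186 UMIs in risperidone, a log2 fold of 1.10 (0.79 to 1.43) with lanes apart, as for 57.6% of all genes there. It was the 1 member of the 6 measured there that was higher by the size rule, where 16.3% of 7879 genes were. The members lower by the rule were 3, Kcnb2, Kcnc1 and Kcnc2, where 19.6% of genes were. Kcna6 was at a fold of 0.13 (-0.15 to 0.41), or -0.14 without other cells' RNA, and Kcna2 at 0.23 (-0.26 to 0.72), both with overlapping lanes.

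**Figure D4:**
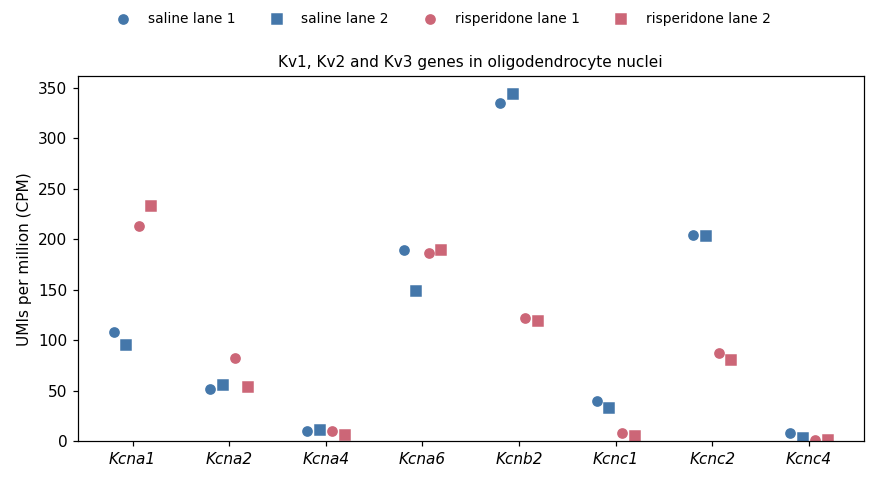
Level of each gene in oligodendrocyte nuclei in CPM (axis from 0), with 1 point per lane (blue saline, red risperidone, circles lane 1, squares lane 2). Kcna1 is higher in both risperidone lanes, Kcna6 and Kcna2 overlap, and Kcnb2 and Kcnc2 are lower in both risperidone lanes.

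Several measures moved with that class. It held 249 and 255 nuclei in saline and 438 and 476 nuclei in risperidone, with medians of 1913 and 1234 UMIs per nucleus. The 17 markers of neurons and astrocytes summed to 1491 to 1592 CPM in saline and 610 to 655 CPM in risperidone, and 16 of them were lower. All 7 oligodendrocyte markers had folds above 0, from 0.08 for Mbp to 0.85 for Mog. With other cells' RNA subtracted the Kcna1 fold was 0.89, and among nuclei of at least 2000 UMIs it was 0.85, from 45.6 and 94.7 CPM in saline and 143 and 145 CPM in risperidone. The thinned share of oligodendrocytes with Kcna1 was 13.8% (9.60 to 19.1%, n = 224) in saline and 24.8% (18.0 to 32.7%, n = 145) in risperidone. The background share in astrocytes was 2.42% and 2.04%. For Kcnb2 and Kcnc1, subtraction left 0 CPM in oligodendrocytes of both pools, and Kcnc2 kept 6.73 CPM on average, so their folds in this class are not read as a difference in oligodendrocytes. The part of nucleus size in the Kcna1 value was not tested beyond the floor of 2000 UMIs.

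The wider Kv list took in 31 further genes: other Kv1 to Kv3 subunits, silent subunits that join Kv2 channels, Kv beta subunits that bind the Kv1 tetramer, and proteins that cluster Kv1 or Kv2. This list was also chosen with earlier results of these data known, so its counts beside those of all genes are a description. In glutamatergic nuclei 18 of 31 reached 10 CPM, 3 were lower by the size rule and 0 higher, where 5.87% and 4.75% of all genes were. The 3 were Kcnab2, a beta subunit needed for axonal Kv1 traffic (124, 119, 80.3 and 82.7 CPM, log2 fold -0.64), and the silent subunits Kcng1 (-0.81) and Kcng3 (-0.60). The 9 genes of Kv1 clustering had a median of 0.03 with 0 past the rule: 4 of them were below 0, the scaffold gene Dlg4 at -0.39, Lgi2 at -0.37, the secreted ligand gene Lgi1 at -0.29 and Cntnap2, the juxtaparanodal adhesion molecule, at -0.01, and Adam22, the receptor of the Lgi1 ligand, was at 0.10. In PV-INs 17 reached 10 CPM, with 1 lower, Dlg4 (-0.63), and 3 higher, Lgi3 (0.61), Vapa (0.59) and Lgi2 (0.50), where 7.41% of all genes were lower and 7.93% higher. Sst-INs had 15 at that level, with 3 lower, among them Dlg4 (-0.63), and 0 higher, where 6.79% and 7.20% of all genes were. The beta subunit Kcnab1, which confers fast inactivation on Kv1 channels, was at -0.41 in glutamatergic nuclei and at -0.04 in PV-INs, with 359 and 350 CPM against 280 and 278 CPM in the first.

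For each member the genes most like it over the 17 classes were taken by Pearson r of log2(CPM + 1) among 11520 genes that reached 10 CPM in some class, with class markers left out. Nearest to Kcnb2 were Lrfn5 (r = 0.96), Hs6st3 (0.92) and Mest (0.91). Kcnc1 was followed by Gm15396 (0.93), Vstm2a (0.91) and Nipal2 (0.90), and Kcnc2 by Tm6sf1 (0.92), Ttc39a (0.88) and Vstm2a (0.87), so Vstm2a was near both Kv3 genes. Kcna1 was nearest to Gm42372 (0.92), Pcolce2 (0.92) and Gm29325 (0.91), and Kcna6 to 1500004A13Rik (0.90), Usp20 (0.88) and Gm29325 (0.87). Kcna2 was nearest to C920021L13Rik (0.87), Macrod1 (0.85) and Dcaf11 (0.85), Kcna4 to Gm13269 (0.91), Camk4 (0.88) and Cacnb2 (0.87), and Kcnc4 to Pip4k2b (0.87), Dkk3 (0.84) and Gas8 (0.84). With Spearman's rho in place of r, 2 of the 3 nearest genes were kept for Kcna2, Kcnb2, Kcnc1 and Kcnc4, 1 for Kcna1 and 0 for Kcna4, Kcna6 and Kcnc2.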

How the data were processed

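Single-nucleus RNA of 1 pool of cortices per condition was measured in 4 lanes. The authors aligned reads and counted UMIs with Cell Ranger 8.0.1 (submitters' processing notes) and deposited filtered matrices of counts, with whole UMI counts per gene and nucleus and no normalization, so every result starts from counts. Identifiers were matched to GENCODE vM21 (32235 of 32285), and no annotation of cells was used. Nuclei under 500 genes or over 5% mitochondrial UMIs were dropped, and the rest were classed by the likelihood of their marker UMIs under Poisson profiles, and left out where a mix of 2 classes was likelier. Counts were summed per class and lane, scaled by edgeR 4.0.16 TMM factors (DESeq2 1.42.0 size factors as an alternative) and compared by the size rule, with exact Poisson, binomial and conditional binomial intervals. There was no test between pools, since lanes are technical. RNA of other cells was estimated per class as the median ratio, over markers of other classes, of class level to lane level, and subtracted with the lane profile. That profile holds the class itself, so for glutamatergic nuclei much of what was subtracted is glutamatergic RNA. The estimate is rough, also since those markers may be expressed at low levels in the class. Counts were not allowed to turn negative on subtraction, so a share of 100% is a cap. The estimate was 38.0% to 43.3% of glutamatergic UMIs in the 4 lanes, and in oligodendrocytes 35.3% and 38.9% in saline and 15.8% and 22.8% in risperidone, but 85.5% and 97.5% in risperidone layer 5 NP nuclei, where subtraction was not used. Lane totals of 119736937 to 203675013 UMIs set the counting precision. The text names the members, the wider Kv list, the 3 genes most like each member and overlapping genes; the class markers and Malat1 are named beside them after their values were seen. The members and gene lists were chosen with earlier results of these data known. Scaling and the size rule were tested on simulated data. Python 3.11.15, scipy 1.17.1 and R 4.3.3 were used. The alternatives tried are given in the closing section.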

Additional observations from a re-analysis of the deposited data

Results flagged for a closer look

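Among glutamatergic nuclei, 2 members had lanes moving in opposite directions in nuclei with Xist and no Y-linked UMI (female, 7105 to 8588 per lane) and nuclei with a Y-linked and no Xist UMI (male, 3270 to 3579 per lane). For Kcnc2, female nuclei gave 382 and 399 scaled CPM in saline and 374 and 374 in risperidone, a log2 fold of -0.066, and male nuclei gave 370, 376, 456 and 458, a fold of 0.29. For Kcna1 the folds were -0.050 in female and 0.12 in male nuclei. The difference between the sexes was not tested, since each pool was 1 sample. Female nuclei were 37.7% and 39.1% of nuclei in saline and 49.8% and 48.8% in risperidone, and male nuclei 17.9% to 19.5% in all lanes. Each pool came from 5 males and 5 females, and whether stray Xist UMIs put male nuclei into the female set was not tested. These calls also depend on UMIs per nucleus, which differed between the pools.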

How the results depend on the processing

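No paired analysis was possible because lane numbers mark technical runs of 1 pool and no result comes from a test. Of 329 values of single members under the alternatives, 309 kept the direction of the main value. Kcnc1 in glutamatergic nuclei ran from -0.68 with other cells' RNA subtracted to -0.47 under plain CPM. The median over the members in glutamatergic nuclei was -0.21, and became -0.15 under plain CPM, -0.25 with a minimum of 1 CPM, -0.15 in male nuclei and -0.25 with layer types weighted equally; without 1 lane it ran from -0.22 to -0.19. In PV-INs it was -0.20, and became -0.13 under plain CPM, -0.29 with a minimum of 1 CPM, -0.23 without the nuclei with the most UMIs, -0.31 in female and -0.074 in male nuclei; without 1 lane it ran from -0.22 to -0.19. In Sst-INs it was -0.19 and, without 1 lane, -0.26 to -0.037, the last without saline lane 2. Members lower by the size rule in glutamatergic nuclei were 1, but 0 under plain CPM, 2 in male nuclei (Kcnc1 and Kcnc4), where 424 of 7242 genes were lower, and 4 with a fold minimum of 0.3, where 1286 of 7280 genes were lower. In PV-INs, 0 lower became 2 with a minimum of 1 CPM, where 1643 of 13796 genes were lower. That minimum took in Kcna4 and Kcnc4, for which no direction is read. In female nuclei 1 was lower (Kcnb2), where 840 of 7437 genes were. A fold minimum of 0.3 gave 2 lower, and 0 higher became 1 (Kcna1), where 1390 genes were lower and 1404 higher of 7462. Members higher were 0 to 1 without 1 lane. The 1 was Kcna1 without risperidone lane 1, where 587 of 7390 genes were higher. In Sst-INs, 0 lower became 1 with a minimum of 1 CPM, where 1555 of 13851 genes were lower. That minimum took in Kcnc4, for which no direction is read. With other cells' RNA subtracted, 0 higher became 1 (Kcna1), where 660 of 7228 genes were higher. Kcna1 was also higher in female nuclei, where 836 of 7358 genes were. A fold minimum of 0.3 gave 2 lower and 1 higher (Kcna1), where 1256 genes were lower and 1235 higher of 7366. Over all genes, a minimum of 1 CPM moved the counts lower and higher to 1180 and 1490 in glutamatergic nuclei, 1643 and 1974 in PV-INs, 1555 and 1957 in Sst-INs, and from 1548 and 1287 to 2639 and 2622 in oligodendrocytes. Female nuclei alone gave 840 lower in PV-INs and 836 higher in Sst-INs. A stricter class margin and leaving out the nuclei with the most UMIs kept every oligodendrocyte and gave no other value there. The cause of these moves was not tested. Thinning to 3000 UMIs moved the shares with Kcnc1 in glutamatergic nuclei to 23.5% and 17.5%. Depth limits Kcna4 and Kcnc4 in PV-INs, with 43 and 22 UMIs in saline and 31 and 16 in risperidone.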
